A study of Homo sapiens with 2 samples.

Results

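The miR-320 family and miR-484 were examined in A549 cells as 5 mature miRNAs selected by name, hsa-miR-320a, hsa-miR-320b, hsa-miR-320c, hsa-miR-320d and hsa-miR-484, out of 859 mature miRNAs listed in the count table. All 5 names were listed. They are often grouped because their hairpins are processed without Drosha, and no measurement of Drosha is part of these data, so that shared trait could not be checked here. A549 is an established human lung adenocarcinoma line, grown in DMEM with 10% FCS. Small RNAs were sequenced from cells kept for 24 h in normoxia (20% oxygen) and from cells kept for 24 h in hypoxia (1.2% oxygen), with 1 library per condition. The normoxia library had 4514818 counts on mature miRNAs and the hypoxia library 8600160. Levels are given as CPM, counts scaled to 1000000 of these mature counts. Intervals are at 95% and cover counting error only. They treat reads as independent, though PCR reads without molecular identifiers are not independent molecules, and so may be too narrow. Because there were no replicates, differences between conditions carry no replicate check and no test.

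Most miRNA hairpins are cut out of a longer transcript by the nuclear enzyme Drosha and then trimmed by Dicer. The hairpins of miR-320 and miR-484 are instead described as short capped transcripts whose ends are set by transcription, so that Dicer acts on them directly. Whether each gene of the miR-320 family is made this way was not tested here. Mirtrons reach Dicer by another route, as short introns released by splicing, and some miRNAs are cut from snoRNAs.

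RefSeq (GRCh38.p14) held the mature sequence of 687 of the 859 miRNAs by name, among them 4 of the 5 members, all but miR-320a. These sequences are shown because they set which counts can be told apart. They run 5′ to 3′, with the seed, bases 2 to 8, in capitals. The members miR-320b, miR-320c and miR-320d shared a seed with miR-4429, which is not a member, while the seed of miR-320e is shifted by 1 base and that of miR-484 was found in no other of the 687.
miR-320b: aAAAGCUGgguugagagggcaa
miR-320c: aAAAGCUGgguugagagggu
miR-320d: aAAAGCUGgguugagagga
miR-4429: aAAAGCUGggcugagaggcg
miR-320e: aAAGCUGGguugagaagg
miR-484: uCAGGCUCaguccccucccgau

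With positions counted from 1 at the 5′ end, miR-320b and miR-320c were identical over their first 19 bases and then differed by C20U. miR-320b and miR-320d were identical over their first 18 bases and then differed by G19A. A read that ends before these bases cannot be assigned to 1 of them, so the separate counts of miR-320b, miR-320c and miR-320d are uncertain, and the family sum is given beside them. miR-320a was not part of this comparison of sequences, so its counts are not shown to be separable from theirs. The edit distance was 3 between miR-320b and miR-320c, 2 between miR-320c and miR-320d, and 14 or 15 between miR-484 and these 3 miRNAs.

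The genes of the 4 members with a RefSeq sequence are dispersed. In GRCh38 miR-484 lies at chr16:15643301-15643322 on the plus strand. Its hairpin overlaps an exon of NDE1 annotated in part as an untranslated region, on the same strand and starting 27 bases after the start of that gene. miR-320b comes from 2 hairpins on chromosome 1, MIR320B1 (mature at chr1:116671787-116671808, plus strand), which overlaps no other annotated gene, and MIR320B2 (chr1:224257049-224257070, minus strand), in an intron of NVL on the same strand. miR-320c comes from MIR320C1 (chr18:21683559-21683578) in an intron of ABHD3 and MIR320C2 (chr18:24321716-24321735) in an intron of OSBPL1A, both on the strand opposite to the gene. miR-320d comes from MIR320D1 (chr13:40727828-40727846) and MIR320D2 (chrX:140926172-140926190), both on the minus strand and overlapping no other annotated gene. The mature sequence starts at base 8 of the 79-base hairpin of miR-484, on its 5′ side, and at base 41 or 42 in the hairpins of miR-320b, miR-320c and miR-320d, on their 3′ side.

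hsa-miR-320a was the most abundant member in both libraries. It had 13252 counts in normoxia, or 2935 CPM (interval 2886 to 2986), and 26075 counts in hypoxia, or 3032 CPM (2995 to 3069). hsa-miR-484 had 4544 counts in normoxia, or 1006 CPM (977 to 1036), and 11054 counts in hypoxia, or 1285 CPM (1261 to 1310). Its hypoxia level was thus above its normoxia level by more than the counting intervals. hsa-miR-320b had 1473 counts in normoxia, or 326 CPM (310 to 343), and 2363 in hypoxia, or 275 CPM (264 to 286), so the lower level was that in hypoxia. hsa-miR-320c had 358 counts in normoxia, or 79.3 CPM (71.3 to 87.9), and 569 in hypoxia, or 66.2 CPM (60.8 to 71.8), and these intervals overlapped. hsa-miR-320d had 5 counts in normoxia and 9 in hypoxia, 1.11 and 1.05 CPM, and no difference was detectable at this depth.

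The order of the members was the same in both libraries, miR-320a, miR-484, miR-320b, miR-320c and miR-320d, and the intervals of neighbouring members did not overlap. Among the 859 miRNAs, miR-320a ranked 25 in normoxia and 30 in hypoxia, miR-484 ranked 59 and 50, miR-320b 90 and 100, and miR-320c 169 and 177. The closest miRNAs in abundance to miR-484 were miR-99a-5p above (1007 CPM) and miR-28-5p below (986 CPM) in normoxia, and miR-194-5p (1297 CPM) and let-7i-5p (1276 CPM) in hypoxia. All 4 had intervals that overlapped that of miR-484. miR-320a lay between miR-30d-5p (3067 CPM) and miR-339-5p (2900 CPM) in normoxia, and its interval overlapped that of miR-339-5p only. In hypoxia it lay between miR-125b-5p (3103 CPM) and miR-224-5p (2995 CPM), with overlap on both sides.

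**Figure D1:**
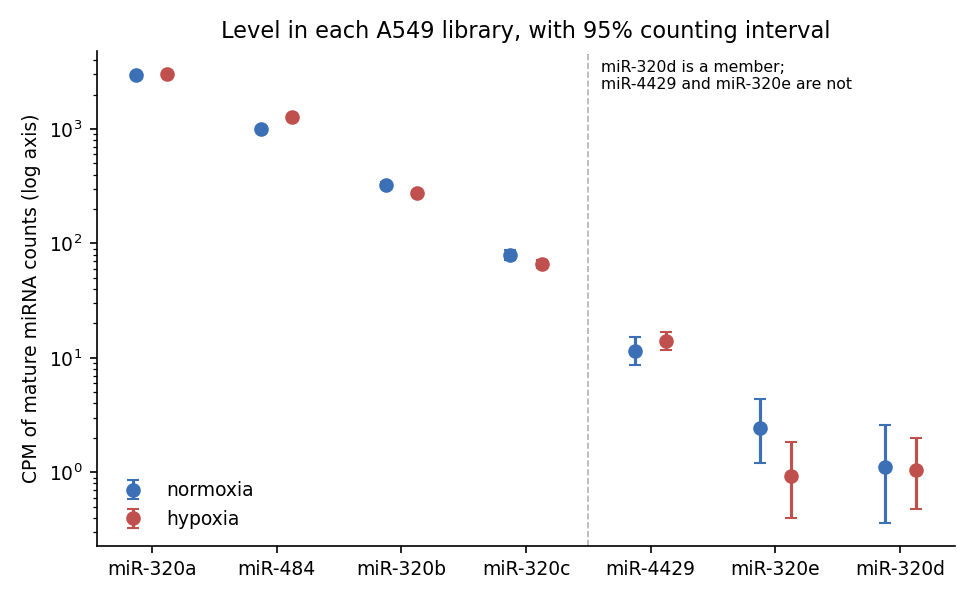
CPM of mature miRNA counts on a log axis for the 5 members and for miR-4429 and miR-320e, with 1 point per library and bars for the 95% counting interval. The points of miR-320a (2935 and 3032 CPM) stand far above those of miR-320d (1.11 and 1.05 CPM).

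The family sum of miR-320a to miR-320d took 0.334% (Clopper-Pearson interval 0.329 to 0.340%) of mature counts in normoxia and 0.337% (0.334 to 0.341%) in hypoxia. These intervals overlapped. miR-484 took 0.101% (0.0977 to 0.104%) and 0.129% (0.126 to 0.131%). There were 0.301 counts of miR-484 for each count of the family in normoxia and 0.381 in hypoxia, a ratio that no scaling of the libraries can change. Within the family, miR-320a made up 87.8% of counts (87.3 to 88.3%) in normoxia and 89.9% (89.5 to 90.2%) in hypoxia. miR-320b made up 9.76% (9.29 to 10.2%) and 8.14% (7.83 to 8.46%), and miR-320c 2.37% (2.14 to 2.63%) and 1.96% (1.80 to 2.13%). These shares within the family depend on how reads were assigned to its members, which is uncertain.

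Hypoxia was set against normoxia as a log2 ratio, with a prior count of 2 and libraries scaled to their mature totals. This ratio was 0.35 for miR-484 (0.30 to 0.40), 0.05 for miR-320a (0.02 to 0.08), -0.25 for miR-320b (-0.34 to -0.15) and -0.26 for miR-320c (-0.45 to -0.07). The ratio of the family sum was 0.01 (-0.01 to 0.04), and that of miR-320d was -0.06 (-1.81 to 1.84). Other scalings moved the median of all 339 miRNAs with a mean log2 CPM above 3, which was 0.08 with mature totals, by -0.11 with edgeR's TMM and by as much as -0.19. The signs for miR-484, miR-320b and miR-320c held under the 4 other scalings, while those of miR-320a and the family sum were negative under each of the 4. Relative to the median of the 339, miR-484 was higher by 0.27, miR-320a stood at -0.03, the family sum at -0.06, miR-320b at -0.33 and miR-320c at -0.34.

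**Figure D2:**
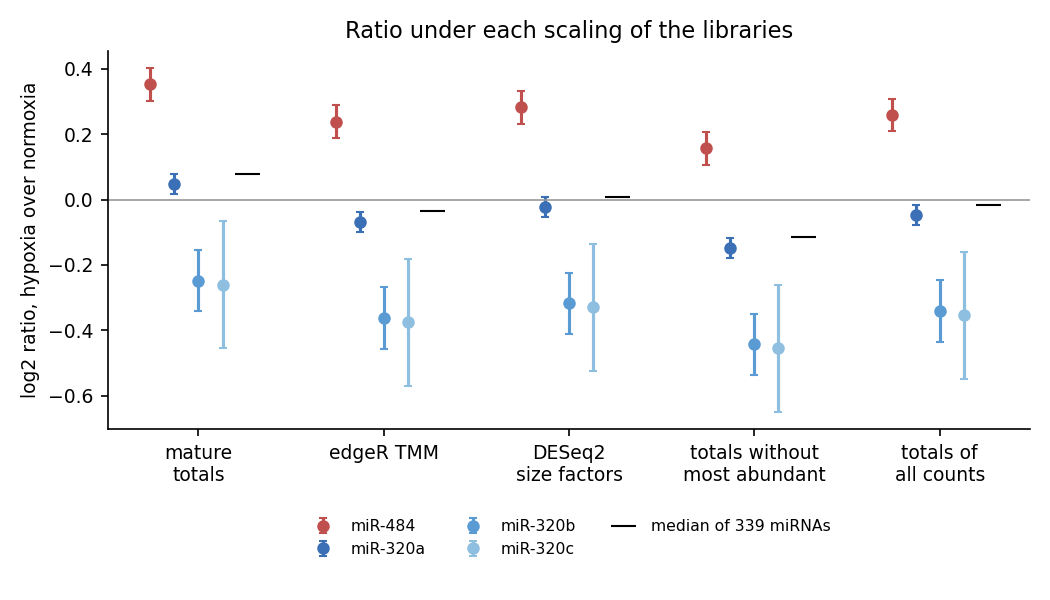
Log2 ratio of hypoxia over normoxia for 4 members under 5 scalings, with 95% counting intervals, and the median of 339 miRNAs as a black dash. The points move together, with miR-484 above the median and miR-320b and miR-320c below it under each scaling, while the sign of miR-320a is positive with mature totals (0.05) and negative with the other 4.

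Differences between members do not depend on the scaling. The log2 ratio of miR-484 exceeded that of the family sum by 0.34 (0.28 to 0.40, from a counting standard error of 0.03). Within the family, the ratio of miR-320a exceeded that of miR-320b by 0.29 (0.20 to 0.39) and that of miR-320c by 0.31 (0.11 to 0.50). miR-320b and miR-320c differed by 0.01 (-0.20 to 0.23), which is within counting error. How reads were split among these family members is uncertain, as given with the sequences. Whether that split differed between the libraries was not tested. For comparison, 47 pairs of other miRNAs past the same filter shared a seed and lay within an edit distance of 3. All had RefSeq sequences, and their ratios differed by a median of 0.34 (quartiles 0.16 and 0.53). Under the same rule, the pairs with a member were miR-320b and miR-320c, with the difference of 0.01 above, and miR-320c and miR-4429, with a difference of 0.54. miR-320a was without a RefSeq sequence by name, so its pairs could not enter. Its differences from miR-320b and miR-320c above are thus not among them.

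Of the 5 members, 4 had a mean log2 CPM above 3, and miR-320d did not. A rule of size asked for a log2 ratio of 0.9 or more, up or down, and 0 of these 4 met it. Over the 339 miRNAs, 12 were higher in hypoxia (3.54%) and 11 lower (3.24%) by the rule. With TMM scaling 340 miRNAs passed the filter and the counts were 8 and 15. The higher share of all miRNAs past the rule was then 34.8% in place of 52.2%. DESeq2 size factors gave the same 8 and 15, totals without the 10 most abundant miRNAs gave 5 and 18 (21.7%), and thinning of the deeper library gave 16 and 9 (64.0%). The miRNAs past the filter there numbered 340, 340 and 338 in turn. miR-484 ranked 96 of 339 from the highest ratio down, miR-320a 184, miR-320b 263 and miR-320c 268. miR-210, a miRNA induced by hypoxia in many cell types, ranked 1 with 954 CPM in normoxia, 2657 CPM in hypoxia and a log2 ratio of 1.48 (1.43 to 1.52).

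Among miRNAs of similar abundance, with a mean log2 CPM within 1 of the member, the members lay inside the range. Of 33 such miRNAs for miR-484, 8 had a higher ratio and 25 a lower one, and their median was 0.09. Of 33 for miR-320a, 20 had a higher and 13 a lower ratio, with a median of 0.31. For miR-320b, 43 of 54 were higher, and for miR-320c 66 of 89. Within the 33 of similar abundance, the 3 miRNAs with the ratio nearest to that of miR-320a, over these 2 libraries, were miR-192-5p (0.04), let-7a-5p (0.03) and let-7b-5p (0.03). Within the 33 for miR-484, the nearest were let-7e-5p (0.34), miR-425-5p (0.32) and miR-222-3p (0.39).

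**Figure D3:**
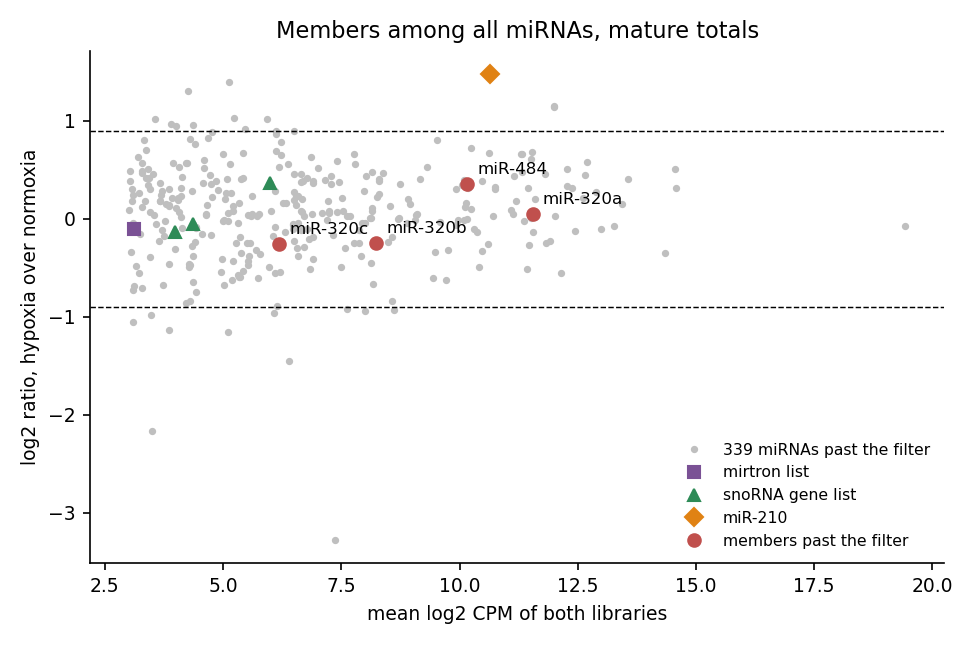
Log2 ratio of hypoxia over normoxia against the mean log2 CPM of both libraries for 339 miRNAs, with members, the mirtron list, the snoRNA gene list and miR-210 in colour and dashed lines at 0.9 and -0.9. The 4 members past the filter lie between the dashed lines, with the sign of miR-320a turning under the other scalings, and miR-210 lies at 1.48.

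miR-4429, which has the seed of miR-320b, had 52 counts in normoxia and 121 in hypoxia, 11.5 and 14.1 CPM. Its log2 ratio of 0.28 had an interval from -0.19 to 0.79. miR-320e had 11 counts in normoxia and 8 in hypoxia, or 2.44 CPM (1.22 to 4.36) and 0.930 CPM (0.402 to 1.83). Its ratio of -1.15 had an interval from -2.91 to 0.06, which held 0 with mature totals and excluded 0 under the 4 other scalings (with upper ends from -0.14 to -0.011). Adding miR-320e to the family sum left its ratio at 0.01.

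The mirtron list, which holds miRNAs described as mirtrons, had a lower summed level than the members. Whether each of them bypasses Drosha was not tested. Of its 11 names, 6 were listed, as 7 mature miRNAs. Together these had 80 counts in normoxia and 128 in hypoxia, 17.7 and 14.9 CPM, against 4348 and 4659 CPM for the 5 members. The sum of the members is carried by miR-320a and miR-484, and miR-320d (1.11 and 1.05 CPM) lay below the mirtrons miR-877-5p (8.64 and 8.02 CPM) and miR-1229 (3.99 and 4.19 CPM). miR-877-5p was the most abundant mirtron, with 39 and 69 counts, and was the 1 mirtron past the filter, with a log2 ratio of -0.10 (-0.69 to 0.50). It did not meet the rule of size, which 3.54% of the 339 miRNAs met upwards and 3.24% downwards. Below the filter, miR-1226-3p had 12 normoxia counts and 6 hypoxia counts, a ratio of -1.56 (-3.63 to -0.40), and miR-1227 had 0 and 3 counts.

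The count table also has entries for whole hairpins, apart from mature miRNAs, and 5 of its 506 hairpins belong to members. Hairpin ratios were taken from counts over mature totals with no prior count. At few counts they are thus not on the scale of the ratios of mature miRNAs, which have a prior count of 2. For MIR320A there were 8 counts in normoxia against 46 in hypoxia, with a log2 ratio of 1.59 (0.50 to 2.89). MIR484 had 2 and 11 counts, a ratio of 1.53 (-0.67 to 4.74). MIR320B1 had 2 and 8 counts, a ratio of 1.07 (-1.25 to 4.34). MIR320C1 had 7 and 20 counts, a ratio of 0.58 (-0.71 to 2.07), and MIR320B2 had 13 and 16, a ratio of -0.63 (-1.78 to 0.55). The interval thus excluded 0 for MIR320A and held 0 for the other 4. For how many of the other 501 hairpins it excluded 0 was not counted, so no share over all hairpins stands beside this. The ratio of MIR320A thus cannot be called particular to it. The 5 together had 32 and 101 counts, a ratio of 0.73 (0.14 to 1.35), and without MIR320A they had 24 and 55 counts, a ratio of 0.27 (-0.45 to 1.02). Totals without the 10 most abundant miRNAs moved the median of mature miRNAs past the filter by -0.19. A shift of that size would bring the interval of the 5 together to hold 0. The other 501 hairpins had 10540 and 17771 counts, a ratio of -0.18 (-0.21 to -0.14). Which reads were given to the hairpin and not to the mature miRNA is not stated for these data, so a hairpin count is not a measure of precursor level.

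Per 1000 mature counts, the MIR320A hairpin had 0.604 counts in normoxia and 1.76 in hypoxia, and MIR484 had 0.440 and 0.995. Over 92 other hairpins with at least 1000 mature counts in normoxia, the median was 1.85 in normoxia and 1.68 in hypoxia. In normoxia 25 of the 92 lay below MIR320A and 14 below MIR484, and in hypoxia 48 and 31. MIR320B2, set against all counts of miR-320b as was MIR320B1, had 8.83 in normoxia and 6.77 in hypoxia. With that minimum the value was higher in hypoxia for 3 of 4 hairpins of members and for 48 of the 92 others. MIR320C1, with 358 mature counts in normoxia, was under the minimum and had 19.6 and 35.1. With a minimum of 100 mature counts, chosen like this comparison after seeing the data, the medians over 153 other hairpins were 3.13 and 3.58. Then 32 of the 153 lay below MIR320A in normoxia and 51 in hypoxia, so that its value in hypoxia was above the median with the first minimum and below it with this one. Below MIR484 lay 21 and 32.

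**Figure D4:**
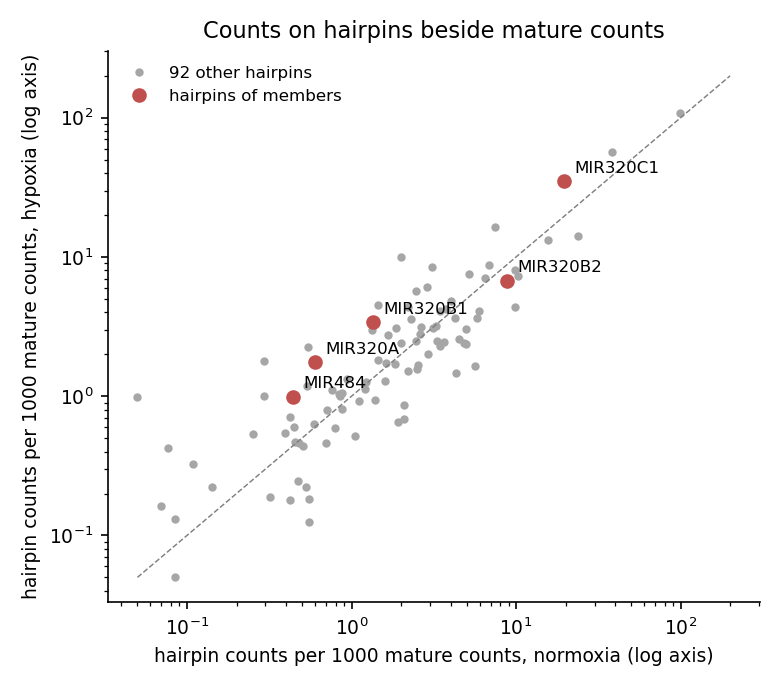
Hairpin counts per 1000 mature counts in hypoxia against normoxia, both on log axes, with 92 other hairpins of at least 1000 mature counts in grey, 5 hairpins of members in red and a dashed line of equality. MIR320B2 (8.83 and 6.77) lies below the line and the other 4 above it, among them MIR320C1, which is under that minimum, and 2 grey points with a value under 0.05 are drawn at 0.05.

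The label of the cells was checked with marker miRNAs. All 5 epithelial names were listed, as 8 mature miRNAs with a summed level of 1175 CPM in normoxia and 1368 CPM in hypoxia, led by miR-200b-3p (880 and 1085 CPM). The higher sum in hypoxia is carried by miR-200b-3p, while miR-141-3p had 37.2 and 25.5 CPM, a log2 ratio of -0.54 (-0.84 to -0.25), and the median ratio of the 8 was -0.01. Of 4 blood cell names 3 were listed, summing to 20.4 and 24.3 CPM and led by miR-451a (18.2 and 22.2 CPM), and miR-223 was not listed. The endothelial marker miR-126 summed to 222 and 221 CPM over both arms, led by miR-126-3p. Of 4 muscle names 2 were listed, miR-133a with 0 and 18 counts and miR-133b with 0 and 3, while miR-1 and miR-206 were not listed. The liver marker miR-122-5p had 4 counts in each library. Whether RNA of other cells has a part in the members' levels was not tested.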

How the data were processed

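The table deposited by the authors gives counts of reads for each small RNA, without normalization. Libraries were made with a ligation kit for SOLiD sequencing. For such data the methods name LifeScope with its small RNA pipeline and miRBase version 18, without naming this experiment, and the submitters' processing notes give the build hg19. No entry has a sum under 3 counts, so an unlisted name may still have had fewer. All entries together sum to 6449337 counts for normoxia and 13115226 for hypoxia.

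Libraries were scaled to mature miRNA totals. Log2 CPM followed the formula of edgeR with a prior count of 2. Ratios of whole hairpins instead used counts over mature totals, with no prior count. Intervals for shares are exact Clopper-Pearson intervals, those for ratios are exact conditional binomial intervals, and those for differences use a counting standard error. The intervals for ratios use no prior count, while the ratios of mature miRNAs do. At few counts such a ratio is thus closer to 0 than the ratio its interval belongs to. Alternatives were TMM of edgeR version 4.0.16, totals of all counts, DESeq2 (version 1.42.0) size factors and mature totals less the most abundant miRNAs. The miRNAs left out were those among the 10 most abundant in either library, and they were left out of both totals. Further alternatives were a prior count of 0.5, thinning, other filters, thresholds and denominators. Each scaling kept the same mean library size. R version 4.3.3, Python version 3.11.15 and scipy version 1.17.1 were used, and positions were set beside GENCODE version 29. Simulated data with known folds were used to test the ratio calculation.

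Named miRNAs were the members, miR-320e, miRNAs with a member's seed, the lists of mirtrons, snoRNA genes and cell markers, miR-210, the 3 nearest in ratio and the neighbours in abundance. The members and lists were chosen with earlier results of these data known. The comparisons with hairpins and with closely related pairs were added after seeing the data. Hairpins were joined to mature miRNAs by listed position, or else by symbol in RefSeq.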

Additional observations from a re-analysis of the deposited data

How the results depend on the processing

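The ratio of the family sum, 0.01 with mature totals, was -0.10 with TMM, -0.057 with DESeq2 size factors, -0.18 with totals without the 10 most abundant miRNAs and -0.081 with totals of all counts. That of miR-320a, 0.05, was -0.068, -0.024, -0.15 and -0.048 under the same 4, and that of miR-484, 0.35, was 0.24, 0.28, 0.16 and 0.26. These shifts are those of the whole set of miRNAs, and a prior count of 0.5 or thinning of the deeper library left these ratios within their counting intervals. The difference between miR-484 and the family stayed between 0.31 and 0.34 under its 3 alternatives. With all counts as the denominator the family took 0.234% in normoxia and 0.221% in hypoxia, and miR-484 took 0.0705% and 0.0843%. With the 10 most abundant miRNAs of either library left out of the denominator, the family took 2.16% and 1.90%. The share of miR-484 was then 0.651% and 0.725%. Both are larger by construction of the smaller totals. The share of the family was thus lower in hypoxia with these 2 denominators, and that of miR-484 higher with each. Counts past the rule of size, 12 higher and 11 lower, became 5 and 18 with totals without the 10 most abundant of either library. They became 113 and 64 with no filter on low counts, which adds miRNAs of few counts. With a threshold of 1, 8 were higher and 6 lower.

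No paired analysis was possible because normoxia and hypoxia had 1 library each, and for the same reason none was left out. Culture, library and condition cannot be told apart. At 5 and 9 counts, the interval for the log2 ratio of miR-320d runs from -1.81 to 1.84.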

Other observations

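Of miRNAs from snoRNA genes, all 4 names were listed, as 6 mature miRNAs with a summed level of 97.9 CPM in normoxia and 122 CPM in hypoxia. miR-664-3p was the most abundant, with 252 and 620 counts and a log2 ratio of 0.37 (0.16 to 0.59). Of the 6, 3 passed the filter, with a median ratio of -0.05 beside 0.08 over 339 miRNAs. The median of all 6 was 0.53, which includes those under the filter and so is not comparable with 0.08. Of the 3 past the filter, 0 met the rule of size, beside 3.54% of the 339 upwards and 3.24% downwards. With no filter, 2 of the 6 were higher by the rule and 0 lower, beside 113 and 64 of 859 miRNAs.

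miR-1248 had 17 counts in normoxia and 101 in hypoxia, 3.77 and 11.7 CPM, a log2 ratio of 1.57 (0.89 to 2.48), with a mean log2 CPM of 2.81 that kept it under the filter. miR-664-5p had 3 and 20 counts, a ratio of 1.44 (0.05 to 4.20), and miR-3607-5p had 4 and 14, a ratio of 0.70 (-0.79 to 2.94). The other arm of each of these 2 hairpins, miR-664-3p and miR-3607-3p, had ratios of 0.37 and -0.14.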
